A study of Mus musculus with 17 samples.

Results

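MHC class I molecules show peptides from inside a cell to CD8 T cells, and their messenger RNAs are described here through 4 genes, H2-K1, H2-D1, B2m and Tap1, which were chosen by name. All 4 were among the 10207 rows with a gene symbol in the deposited count table, and all 4 were among the 7518 genes tested. The RNA is of myeloid cells from female BALB/c mice. Tumor-bearing mice had received 100000 cells of 4T1-luc, a mouse mammary carcinoma line with luciferase, in a mammary fat pad. Tumor-associated macrophages (TAM, 3 libraries) were sorted as CD11b+ Gr1- F4/80+ cells from digested tumors. BMDM_T (4 libraries) were CD11b+ Gr1+ F4/80low marrow cells of tumor-bearing mice, and BMDM_H (4 libraries here) came from the same gate in untreated mice. Both groups from tumor-bearing mice are labelled 8 weeks old and the healthy group 12 weeks, so tumor and label age cannot be told apart in comparisons with BMDM_H. The other 6 of the 17 libraries (batch 2, with 4 BMDM_H and 2 of normal mammary gland macrophages) hold rows in another order than the symbols, and no member could be read in them.

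A class I molecule is a heavy chain, encoded in the mouse by H2-K1 and H2-D1, bound to the light chain beta-2-microglobulin, which B2m encodes. Proteasomes cut cytosolic proteins, and the TAP pump, of which Tap1 encodes a subunit, carries the peptides into the endoplasmic reticulum, where tapasin and the chaperones calreticulin and ERp57 help to load them. Interferons and the transactivator NLRC5 are known to raise these genes together. In macrophages the same molecules can also present peptides from engulfed material to CD8 T cells.

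In mm10, 3 of the 4 genes lie in the H2 complex on chromosome 17 and are protein coding. H2-K1 spans 33996017 to 34000347 (minus strand), Tap1 34187553 to 34197225 (plus strand) and H2-D1 35262730 to 35267499 (plus strand). B2m lies on chromosome 2 (122147686 to 122153083, plus strand), inside the span of Patl2 on the opposite strand. Only gene spans were compared, and overlap of exons was not checked. The strand setting of the counting is not given in the sources used here, so whether reads of Patl2 entered the B2m counts is not known. Tap1 overlaps the immunoproteasome gene Psmb9 on the opposite strand by 212 bases.

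The windows upstream of the members' starts are shown because the genes were high together in TAM. Each runs from 250 bases before to 50 after a RefSeq start (GRCm38.p6), 5′ to 3′ on the gene's strand, and for H2-K1, which has 2 starts in the table, the first was taken. Capitals mark matches on either strand to GGGATTCC (the core of a kB site), AANNGAAA (an IRF core), TGACG (the core of the X2 box) and CCAAT.
H2-K1, chr17:34000298-34000597, minus strand: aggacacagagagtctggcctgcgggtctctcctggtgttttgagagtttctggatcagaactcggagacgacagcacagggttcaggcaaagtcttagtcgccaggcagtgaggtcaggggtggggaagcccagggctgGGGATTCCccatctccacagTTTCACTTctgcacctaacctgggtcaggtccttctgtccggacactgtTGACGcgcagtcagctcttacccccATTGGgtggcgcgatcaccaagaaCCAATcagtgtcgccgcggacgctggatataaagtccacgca
H2-D1, chr17:35262844-35263143, plus strand: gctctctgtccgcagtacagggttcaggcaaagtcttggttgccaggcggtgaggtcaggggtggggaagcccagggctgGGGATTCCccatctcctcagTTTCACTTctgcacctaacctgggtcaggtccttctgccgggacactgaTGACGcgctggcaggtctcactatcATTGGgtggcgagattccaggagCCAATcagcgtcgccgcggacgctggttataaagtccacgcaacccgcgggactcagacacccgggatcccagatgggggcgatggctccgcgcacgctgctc
B2m, chr2:122147437-122147736, plus strand: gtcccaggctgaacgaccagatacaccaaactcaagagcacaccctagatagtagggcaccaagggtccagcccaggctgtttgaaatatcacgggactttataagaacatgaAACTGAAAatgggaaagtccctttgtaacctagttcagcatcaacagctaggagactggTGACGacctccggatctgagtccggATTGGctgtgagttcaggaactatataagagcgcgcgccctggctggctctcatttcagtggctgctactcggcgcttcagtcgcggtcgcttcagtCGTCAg
Tap1, chr17:34187306-34187605, plus strand: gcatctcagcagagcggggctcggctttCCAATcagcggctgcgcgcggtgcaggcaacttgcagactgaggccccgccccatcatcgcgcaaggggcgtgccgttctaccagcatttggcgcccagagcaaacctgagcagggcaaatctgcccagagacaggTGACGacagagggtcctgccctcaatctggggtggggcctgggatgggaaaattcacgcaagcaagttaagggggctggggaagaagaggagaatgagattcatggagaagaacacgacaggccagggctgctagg

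The windows of the heavy chain genes H2-K1 and H2-D1 were the one pair compared base by base. At the best ungapped offset, which was 60 bases, 176 of 240 bases were identical (73.3%). ATTGG began at base 235 of the H2-K1 window and 175 of the H2-D1 window, and the last CCAAT at 259 and 198. Without gaps, bases past such a shift were compared out of step, which can lower the share. The 2 windows held the same matches in the same order, at different distances from the starts. Both held GGGATTCC, found in 288 of 27025 windows of the same length (1.07%), followed by TTTCACTT, which is the IRF core on the opposite strand. B2m held an IRF core match as well (AACTGAAA), while the Tap1 window held none. That core occurred in 24.2% of all windows. All 4 windows held TGACG or its reverse complement (21% of all windows) and CCAAT or its reverse complement (37.9%). The matches did not overlap one another in these windows. The Tap1 window shares 275 bases with the window of Psmb9, which is transcribed the other way. A match describes letters and was not tested as a binding site.

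Values below are CPM, which are counts divided by a TMM-adjusted library size and brought to one scale. The totals of the 11 libraries ran from 387940 to 3747929 counts. The labelled cell types were compared with their markers. In TAM, 9 macrophage markers summed to 27420 to 34490 CPM and 10 neutrophil markers to 301.7 to 533 CPM. The marrow cells are labelled monocytes, but the neutrophil markers summed to 134800 to 205900 CPM in BMDM_H and 158600 to 191500 CPM in BMDM_T, against 1923 to 3492 and 1272 to 1862 CPM for 6 monocyte markers. The marrow libraries are therefore called by their group names. In sorted bulk cells, a change in the share of a cell type and a change of RNA per cell cannot be told apart.

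Each of the 4 class I genes was highest in TAM, and in none did a TAM library overlap a marrow library. TAM libraries lay above all BMDM_T libraries in 30.4% of genes tested, and above all BMDM_H libraries in 27.5%. H2-K1, a classical heavy chain, had 1012, 1065 and 676 CPM in TAM replicates 1 to 3. In BMDM_T replicates 1 to 4 it had 144, 215, 317 and 201 CPM, and in BMDM_H replicates 1 to 4 it had 372, 240, 311 and 237 CPM. The lowest TAM library was thus above the highest marrow library, while the marrow groups overlapped each other (they did not overlap in 11.2% of genes tested).

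H2-D1, the other heavy chain in the table with enough counts, had 7127, 6371 and 7654 CPM in TAM. It had 3948, 2951, 2704 and 2671 CPM in BMDM_T and 3464, 2563, 2566 and 2634 CPM in BMDM_H. Replicate 1 was the highest library of each marrow group, and the marrow groups overlapped. H2-L, a further classical heavy chain gene, had only 27, 14 and 11 counts over all TAM, BMDM_T and BMDM_H libraries and did not pass the filter on low counts. The mm10 annotation searched here for gene positions held no H2-L, and where its reads were placed was not tested. These counts are therefore not read as its level.

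B2m had 1450, 1974 and 2246 CPM in TAM. It had 977, 1121, 484 and 529 CPM in BMDM_T and 884, 639, 411 and 448 CPM in BMDM_H. In both marrow groups replicates 1 and 2 were above replicates 3 and 4, and the labels do not say what a replicate number shares between groups.

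Tap1 was the most even member within marrow. It had 194, 155, 185 and 177 CPM in BMDM_T and 195, 175, 173 and 190 CPM in BMDM_H, and 491, 494 and 658 CPM in TAM. The marrow libraries spanned a narrow range that the groups shared, and TAM replicate 3 stood above the other 2 TAM libraries.

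**Figure D1:**
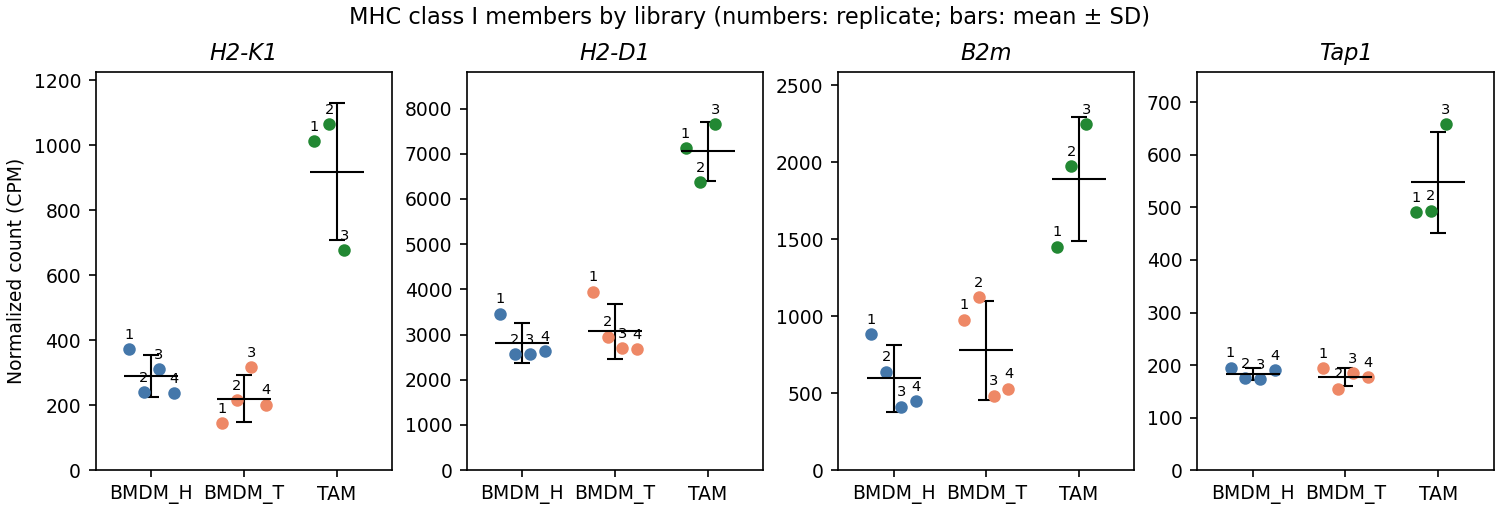
Normalized counts (CPM, vertical axes from 0) of H2-K1, H2-D1, B2m and Tap1 in BMDM_H (n = 4), BMDM_T (n = 4) and TAM (n = 3). Points are libraries with their replicate number, and bars are the mean ± SD. In each panel the 3 TAM libraries lie above all 8 marrow libraries, for Tap1 at 491 to 658 CPM against 155 to 195 CPM.

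TAM against BMDM_T compares macrophages in the tumor with marrow cells of tumor-bearing mice. All 4 members were called higher in TAM, where 30.1% of all genes tested were called higher. H2-K1 was 4.18-fold higher, with a mean of 918 ± 211 CPM in TAM (SD, n = 3) and 220 ± 72.1 CPM in BMDM_T (SD, n = 4). Its log2 fold change was 2.07 ± 0.23 SE (adjusted p = 2.35e-07 in edgeR's quasi-likelihood test). Tap1 was 3.09-fold higher, with 548 ± 95.8 CPM in TAM against 178 ± 16.7 in BMDM_T (1.63 ± 0.16, adjusted p = 2.64e-08). B2m was 2.43-fold higher, with 1890 ± 405 against 778 ± 319 CPM (1.28 ± 0.28, adjusted p = 0.000663). H2-D1 was 2.30-fold higher, with 7051 ± 645 against 3068 ± 600 CPM (1.20 ± 0.18, adjusted p = 1.31e-05). Among all 7518 genes the members' log2 fold changes stood between percentile 83.4 (H2-D1) and percentile 91.9 (H2-K1).

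TAM against BMDM_H shares the TAM libraries with that comparison, so its values are given beside it and not as further support. All 4 members were again called higher, against 28% of genes tested. H2-K1 was 3.15-fold higher (log2 fold change 1.65 ± 0.23 SE, adjusted p = 4.87e-06), B2m 3.15-fold (1.66 ± 0.29, adjusted p = 5.83e-05), Tap1 2.99-fold (1.58 ± 0.16, adjusted p = 5.79e-08) and H2-D1 2.51-fold (1.33 ± 0.18, adjusted p = 4.24e-06). The neutrophil markers that were abundant in marrow and nearly missing in TAM move with both comparisons, and their part in the members' values was not tested. The 3 T and NK cell markers in the table summed to 8.33 to 18.0 CPM in TAM, 240 to 301 CPM in BMDM_T and 190 to 307 CPM in BMDM_H. The 7 epithelial markers, which 4T1 cells could bring, summed to 66.7 to 103 CPM in TAM, 12.9 to 35.8 CPM in BMDM_T and 20.7 to 62.5 CPM in BMDM_H. Among them Krt18 was at 37.8 to 67.4 CPM in TAM, 2.71 to 20.8 CPM in BMDM_T and 12.7 to 42.8 CPM in BMDM_H. Krt8, Krt14, Krt19 and Cdh1 also had their highest mean in TAM. Epcam and Cldn4 had it in BMDM_H, with Epcam at 0.556 to 3.18 CPM in TAM, 0.902 to 5.04 CPM in BMDM_T and 0 to 5.21 CPM in BMDM_H. The part of these cells in the members' values was not tested. The 3 endothelial markers in the table summed to 61.0 to 92.8 CPM in TAM, 19.6 to 36.1 in BMDM_T and 7.81 to 22.5 in BMDM_H, and their part was not tested either.

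BMDM_T against BMDM_H compares the marrow gate between mice with and without a tumor. None of the 4 members was called in edgeR's quasi-likelihood test, where 4.82% of genes tested were called. All 4 also had an unadjusted p above 0.05, and 0 of 4 were called by DESeq2 or limma-voom. The log2 fold change of H2-K1 was -0.41 (95% interval -0.88 to 0.06, adjusted p = 0.362), so a value as low as 0.544 times that of BMDM_H lies inside the interval. B2m had 0.37 (-0.19 to 0.93, adjusted p = 0.528), H2-D1 0.13 (-0.23 to 0.49, adjusted p = 0.775) and Tap1 -0.05 (-0.37 to 0.28, adjusted p = 0.926). The interval of Tap1 was the narrowest and that of B2m the widest, and differences inside these intervals were not detectable here. Without BMDM_H replicates 3 and 4 the B2m value was 0.03 (adjusted p = 0.975).

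Markers of other cells differed between the marrow groups. The 9 macrophage markers summed to 487 to 732 CPM in BMDM_T and 1029 to 1861 CPM in BMDM_H, without overlap. C1qa, a complement gene of macrophages, had 196 ± 83.3 CPM in BMDM_T and 647 ± 290 in BMDM_H (SD, n = 4 each). The 5 erythroid markers summed to 0 to 5.88 CPM in BMDM_T and 27.9 to 135 CPM in BMDM_H. The sums of the neutrophil markers, given above, overlapped between the marrow groups, and single markers went both ways. Mpo, a granule enzyme of early neutrophil precursors, had 1702 ± 154 CPM in BMDM_T and 492 ± 102 in BMDM_H. Camp had 33080 ± 3040 CPM in BMDM_T and 46040 ± 8320 in BMDM_H. By mean, Ngp and Ltf were also lower in BMDM_T, and the other neutrophil markers in the table were higher. The part of these differences in the marrow comparisons was not tested.

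**Figure D2:**
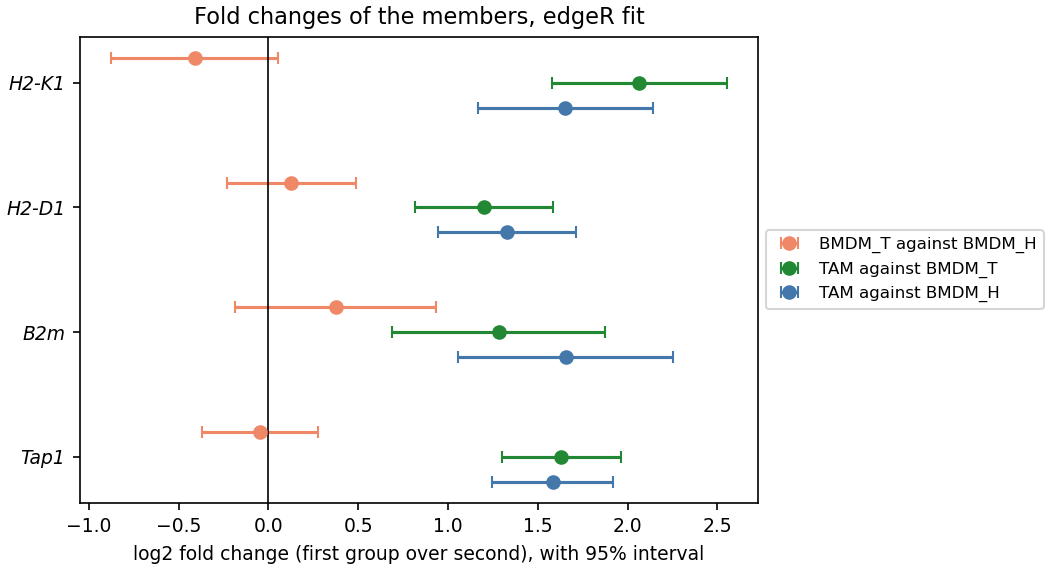
Log2 fold changes of H2-K1, H2-D1, B2m and Tap1 (horizontal axis) in the 3 comparisons, from the fit over 11 libraries, with 95% intervals as bars. Both comparisons of TAM with marrow lie to the right of 0 for each gene, from 1.20 to 2.07, while all 4 intervals of BMDM_T against BMDM_H cross 0.

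Within a library the members did not keep fixed proportions. H2-K1 made up 12.4% of the summed H2-K1 and H2-D1 counts in TAM replicate 1 (95% exact binomial interval 11.9 to 13.0%), 14.3% in replicate 2 (13.7 to 14.9%) and 8.12% in replicate 3 (7.82 to 8.42%). In BMDM_T the share was 3.53% in replicate 1 (2.96 to 4.16%), 6.80%, 10.5% and 7.00% in the others, and in BMDM_H it ran from 8.25 to 10.8%. The groups overlapped in this share. The intervals cover counting error only and not how reads of related alleles were placed, and the spread between libraries of a group was wider than them in TAM and BMDM_T. BMDM_T replicate 1 had the lowest H2-K1 and the highest H2-D1 of its group, and TAM replicate 3 had the lowest H2-K1 and the highest H2-D1, B2m and Tap1.

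The light chain followed the heavy chains loosely. B2m had 23.8 ± 5.17 counts per 100 counts of H2-K1 and H2-D1 in TAM (SD, n = 3), 23.4 ± 8.64 in BMDM_T and 18.9 ± 4.64 in BMDM_H (SD, n = 4 each). Tap1 had 6.86 ± 0.955, 5.47 ± 0.767 and 5.99 ± 0.652 per 100 heavy chain counts in the same groups. In these ratios the groups overlapped. Together the 4 genes held 1.08% ± 0.065 of a library's counts in TAM, 0.398% ± 0.067 in BMDM_T and 0.39% ± 0.066 in BMDM_H.

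**Figure D3:**
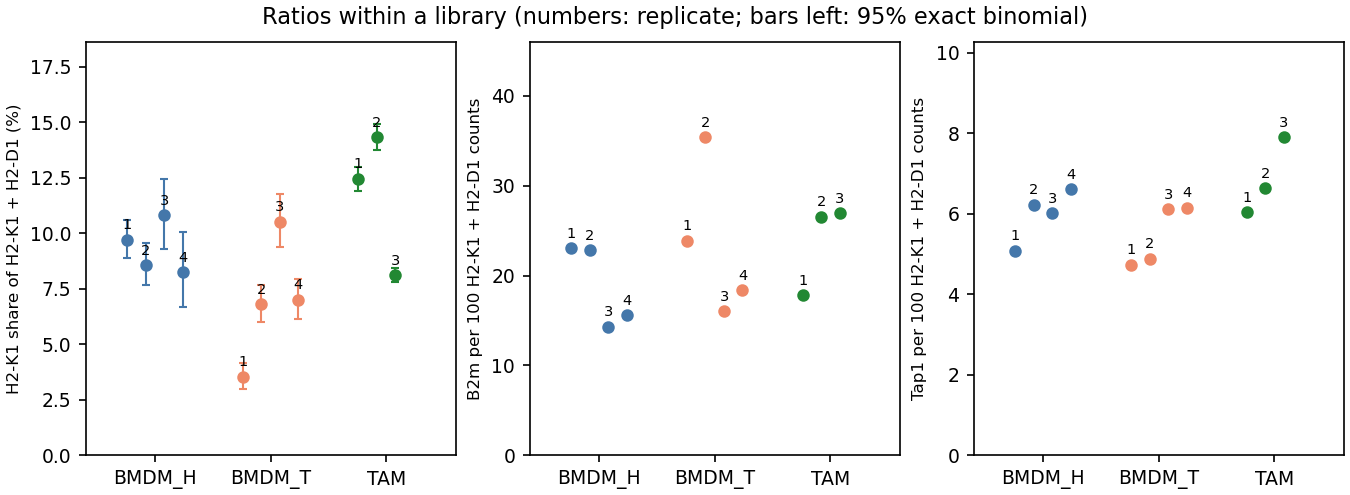
Ratios within each library for BMDM_H (n = 4), BMDM_T (n = 4) and TAM (n = 3): the H2-K1 share of H2-K1 and H2-D1 counts with 95% exact binomial intervals (left), and B2m (middle) and Tap1 (right) counts per 100 heavy chain counts. The H2-K1 share runs from 3.53% in BMDM_T replicate 1 to 14.3% in TAM replicate 2, and in all panels the groups overlap.

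Counts of H2-K1 and H2-D1 depend on how well reads of related genes can be placed. Over the last 400 bases of their longest coding transcripts, 2 of 351 windows of 50 bases were common to both genes. For H2-D1, 43 of 351 windows (12.3%) also occurred in transcripts of other genes, and for B2m and Tap1 0 of 351 did. The H2-D1 windows were shared with 80 other genes in all, and how many of these are class I genes was not looked at. BALB/c mice carry the d haplotype of the H2 complex, whereas the mm10 genome is that of C57BL/6 with the b haplotype. How many reads of the d alleles were lost or placed on another class I gene was not tested. It bears on the level of each gene, H2-L included, and on the H2-K1 share above. That share is therefore given only to set libraries beside each other, and not as the proportion of the 2 heavy chains.

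Genes around the members were grouped by their role in class I presentation, as lists of 137 genes, of which 113 were in the table and 97 were tested. Of these list genes 8 passed the filter on low counts only through TAM, where they are high: H2-Q5, Procr, Erap1, Nlrc5, Ifit2, Mx1, Rsad2 and Ciita. Their values are descriptions, and counts for their lists are also given without them. Of the 7 loading genes beside Tap1, 6 were called higher and 0 lower in TAM against BMDM_T, with a median log2 fold change of 1.08 against 0.03 over all genes tested, and 5 higher and 0 lower against BMDM_H (median 1.25 against 0.02). Without Erap1 these were 5 and 4 of 6, where 30.1% and 28% of all genes tested were called higher. Calr, which encodes calreticulin, had 2069 ± 270 CPM in TAM (SD, n = 3), 666 ± 60.9 in BMDM_T and 401 ± 86.1 in BMDM_H (SD, n = 4 each). Tapbp, which encodes tapasin, the bridge between TAP and the empty heavy chain, had 685 ± 20.9, 324 ± 40.4 and 336 ± 25.6 CPM in the same order. Erap1, a peptidase that trims peptides in the endoplasmic reticulum, had 14.5 ± 2.98, 1.64 ± 1.17 and 3.57 ± 1.40 CPM. All 3 were called higher in TAM in both comparisons, with log2 fold changes against BMDM_T of 1.64 ± 0.18 SE for Calr, 1.08 ± 0.15 for Tapbp and 3.11 ± 0.48 for Erap1.

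Tap2, which encodes the other subunit of the TAP pump, did not pass the test. It had 248 ± 40.3 CPM in TAM, 211 ± 18.4 in BMDM_T and 196 ± 19.6 in BMDM_H, and its log2 fold changes were 0.23 ± 0.16 SE (edgeR adjusted p = 0.213) and 0.35 ± 0.16 (adjusted p = 0.0695). With total counts in place of TMM factors Tap2 was called in both (adjusted p = 0.0359 and 0.0346), and without TAM replicate 3 it was called against BMDM_H (adjusted p = 0.0287). The difference between Tap1 and Tap2 was not tested. Tapbpl, a relative of tapasin, was called against BMDM_T and had 24.8 CPM in TAM against 19.1 in BMDM_H (adjusted p = 0.127), which passed without BMDM_H replicate 3 (0.0285), without BMDM_H replicates 3 and 4 (0.00806) and in limma-voom (0.0381).

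Within marrow, 2 of the 7 loading genes beside Tap1 were called higher in BMDM_T than in BMDM_H and 0 lower, where 2.82% of genes tested were called higher. Pdia3, which encodes ERp57, had 102 ± 32.5 CPM in BMDM_T and 45.7 ± 16.3 in BMDM_H (SD, n = 4 each; log2 fold change 1.06 ± 0.24 SE, edgeR adjusted p = 0.0104). Calr had a log2 fold change of 0.73 ± 0.17 (adjusted p = 0.0139). Without BMDM_H replicates 3 and 4, which have the fewest counts, neither was called (adjusted p = 0.122 and 0.168), and Calr was also lost without replicate 1 (0.0538), without replicate 3 (0.0544) and with total counts (0.0563). Both proteins serve many other glycoproteins. The part of the marker differences between the marrow groups, given above, was not tested here. Of 7 tested genes of general glycoprotein quality control, Prkcsh, a glucosidase subunit, was the 1 called higher in TAM against BMDM_T (log2 fold change 1.00 ± 0.16 SE). In that comparison 30.1% of all genes tested were called higher.

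The immunoproteasome supplies peptides to TAP. Of its 5 genes tested, PA28 included, 4 were called higher in TAM than in BMDM_T and 5 higher than in BMDM_H, with 0 lower and medians of 1.29 and 1.11. Over all genes tested the shares called higher were 30.1% and 28%. Psmb10, a catalytic subunit, had 719 ± 82.7 CPM in TAM, 209 ± 28.5 in BMDM_T and 247 ± 31.9 in BMDM_H (log2 fold change 1.78 ± 0.16 SE against BMDM_T). Psmb8, another catalytic subunit, had 1051 ± 114, 429 ± 21.1 and 425 ± 55.1 CPM, and Psme1 of the PA28 cap had 907 ± 143, 369 ± 40.9 and 418 ± 60.0 CPM. Psmb9, which shares its start region with Tap1, had 398 ± 28.9, 319 ± 50.6 and 262 ± 57.3 CPM. Its log2 fold change was 0.32 ± 0.18 against BMDM_T (edgeR adjusted p = 0.138, and 0.0248 with total counts) and 0.61 ± 0.18 against BMDM_H (adjusted p = 0.0081). None of the 5 was called between the marrow groups.

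Of the 3 catalytic subunits of the constitutive proteasome, 2 were called higher in TAM than in BMDM_T and 3 than in BMDM_H, with medians of 0.68 and 0.71. The shares of all genes called higher there were 30.1% and 28%. Against BMDM_H, Psmb5 and Psmb7 were lost without BMDM_H replicate 2 (adjusted p = 0.0561 and 0.0829), which leaves 1 of 3, and Psmb7 was lost in 3 other alternatives. Psmb6 was the one with the smallest p (473 CPM in TAM against 288 in BMDM_T and 259 in BMDM_H). Cytosolic peptidases, which trim or destroy peptides before TAP, had 2 of 7 called higher and 1 lower in each comparison with TAM, where 30.1% (BMDM_T) and 28% (BMDM_H) of all genes were called higher and 28.7% and 28.3% lower. The share called higher is close to that of all genes. Lap3, a leucine aminopeptidase, had 218 ± 47.0 CPM in TAM against 26.3 ± 7.38 in BMDM_T, while Npepps, the puromycin-sensitive aminopeptidase, had 72.9 ± 5.39 against 197 ± 14.9.

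**Figure D4:**
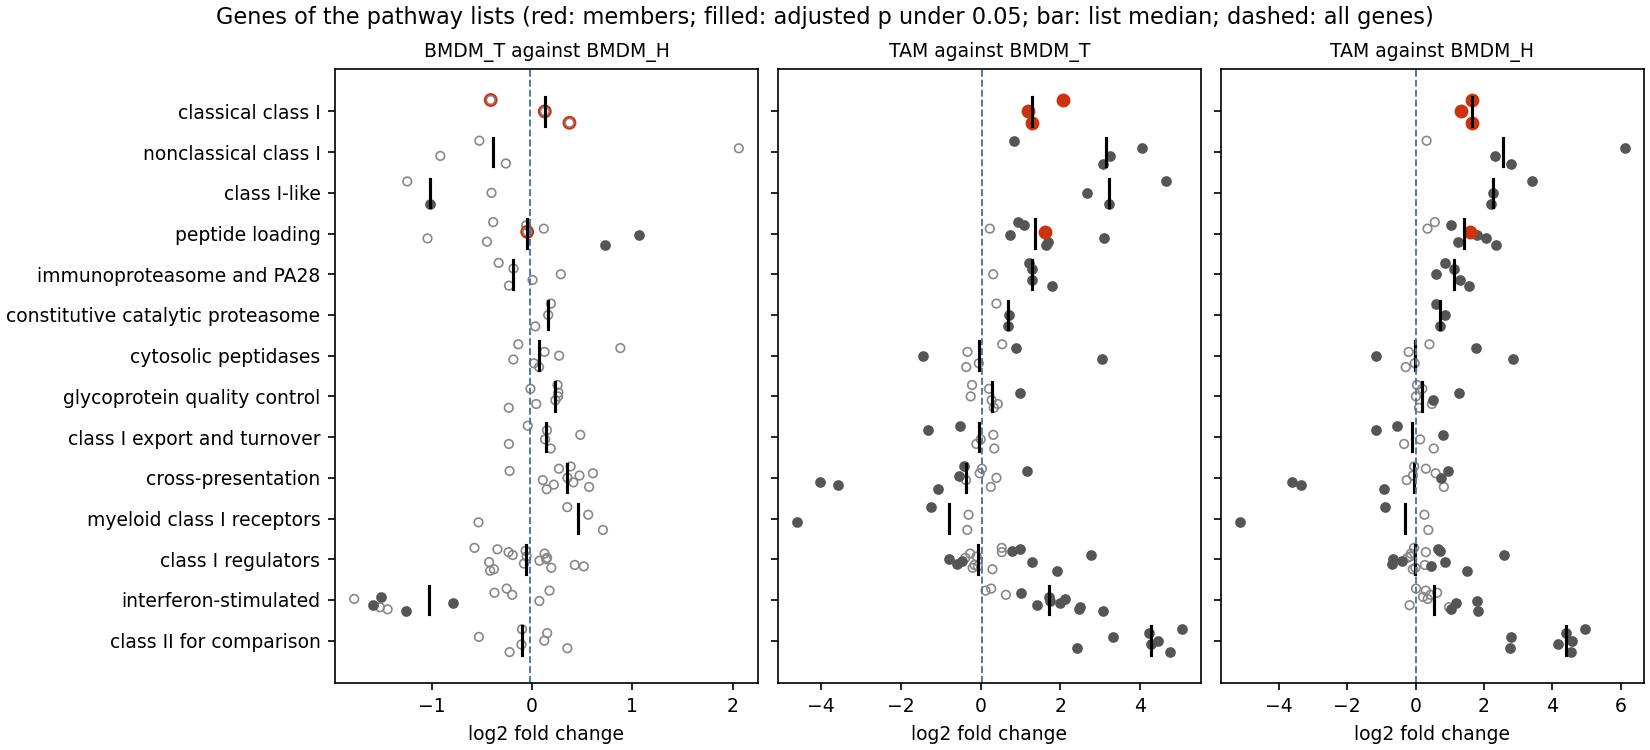
Log2 fold changes of the tested genes of each class I list (rows) in the 3 comparisons (panels). Each point is a gene, filled where it was called, and the members are in red. The medians of peptide loading with Tap1 included (1.36) and the immunoproteasome (1.29) in TAM against BMDM_T lie to the right of 0, those of the cytosolic peptidases (-0.04) and regulators (-0.07) near it.

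Regulators of class I genes did not move together. Of 17 tested, 5 were called higher and 3 lower in TAM against BMDM_T (median -0.07), and 6 higher and 3 lower against BMDM_H (median -0.01). Of all genes tested, 30.1% and 28% were called higher in these comparisons and 28.7% and 28.3% lower. The shares of regulators called higher are near those of all genes. Nlrc5, the transactivator of class I promoters, had 51.2 ± 17.7 CPM in TAM, 7.63 ± 1.29 in BMDM_T and 8.05 ± 5.22 in BMDM_H (log2 fold change 2.77 ± 0.34 SE against BMDM_T, a gene that passed the filter only through TAM). Irf8, a myeloid interferon regulatory factor, had 389 ± 37.7, 159 ± 17.7 and 212 ± 33.8 CPM and was called higher in both. Irf1, another interferon regulatory factor, had 303, 338 and 253 CPM and was called in neither (edgeR adjusted p = 0.469 and 0.207).

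Among genes that respond to interferon in general, some were called lower in BMDM_T than in BMDM_H, where no member was called. Of 12 tested, 9 were called higher in TAM than in BMDM_T and 4 higher than in BMDM_H, with 0 lower. Without the 3 that passed the filter only through TAM, 6 and 4 of 9 were called higher. Over all genes tested the shares called higher were 30.1% and 28%, and the 4 of 12 against BMDM_H are near that share. Ifi44, 1 of the 4 against BMDM_H, was lost in 10 of 19 alternatives (log2 fold change 1.03, and 0.37 without TAM replicate 3). In BMDM_T against BMDM_H 4 were called lower (2% of all genes tested were) and 0 higher, with a median log2 fold change of -1.02 (-0.79 over those 9). The macrophage, monocyte and erythroid markers given above are lower in BMDM_T as well, and their part was not tested. Bst2, a restriction factor that tethers virus particles, had 31.2 ± 6.07 CPM in BMDM_T and 75.8 ± 17.1 in BMDM_H (-1.25 ± 0.21 SE, edgeR adjusted p = 0.00102). The other 3 were Ifit3, Mx2 and Irf7, and without BMDM_H replicate 1 none of these 3 was called (adjusted p = 0.0521, 0.0799 and 0.134). Irf7 was also lost in 5 other alternatives. The difference between these genes and the members was not tested.

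Tested nonclassical class I genes were called higher in TAM than in BMDM_T, and most of them than in BMDM_H. Of 3 that did not pass the filter through TAM alone (H2-M3, H2-T23 and the pseudogene H2-K2), 3 were called higher in TAM than in BMDM_T and 2 higher than in BMDM_H, with 0 lower. Among all genes tested 30.1% and 28% were called higher. H2-Q5, annotated as a polymorphic pseudogene, had 19.8 CPM in TAM, 1.14 in BMDM_T and 0.201 in BMDM_H. H2-M3, which presents formylated peptides, had 121 ± 28.8 CPM in TAM, 13.0 ± 4.29 in BMDM_T and 24.9 ± 3.66 in BMDM_H. Its log2 fold change between the marrow groups was -0.91 ± 0.29 SE (edgeR adjusted p = 0.0814, and 0.0417 with the replicate number as a block). H2-T23, which encodes Qa-1, had 228 ± 72.5, 128 ± 32.6 and 179 ± 71.1 CPM. It was called against BMDM_T (adjusted p = 0.0101, and 0.0611 without TAM replicate 3) and not against BMDM_H (adjusted p = 0.316). Among class I-like genes, Fcgrt, the heavy chain of the neonatal Fc receptor, which also pairs with beta-2-microglobulin, had 675 ± 104 CPM in TAM, 71.4 ± 20.6 in BMDM_T and 149 ± 48.7 in BMDM_H. Fcgrt was lower in BMDM_T than in BMDM_H (log2 fold change -1.02 ± 0.23 SE, adjusted p = 0.0109), a call lost without BMDM_H replicates 3 and 4 (0.0756). The macrophage markers were lower in BMDM_T too, as given above, and their part in the Fcgrt value was not tested.

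Not all genes linked to class I were higher in TAM. Of 11 tested genes of cross-presentation, 5 were called lower and 1 higher against BMDM_T (median -0.37). Against BMDM_H 3 were called lower and 2 higher (median -0.04). Among all genes tested 28.7% and 28.3% were called lower in these comparisons, and 30.1% and 28% higher. Rac2, a GTPase of the phagocyte oxidase, had 12.8 ± 0.426 CPM in TAM against 210 ± 35.2 in BMDM_T, and Rab27a, which brings oxidase to phagosomes, had 15.9 ± 2.75 against 190 ± 35.8. Pirb, an inhibitory receptor for class I on myeloid cells, had 643 ± 26.9 CPM in TAM, 1532 ± 176 in BMDM_T and 1201 ± 123 in BMDM_H, and was called lower in TAM in both. Neutrophils also express these genes, and the part of the neutrophil markers given above in these values was not tested. MHC class II genes, which present to CD4 T cells, were called higher in TAM in both comparisons (6 of 6 without Ciita, which passed the filter only through TAM, with medians of 4.37 and 4.46). The shares over all genes were the 30.1% and 28% given above. The 3 dendritic cell markers in the table summed to 67.2 to 86.6 CPM in TAM, 21.5 to 34.6 in BMDM_T and 33.0 to 68.8 in BMDM_H, and their part in the class I and class II values was not tested. H2-Ab1 had 9751 CPM in TAM against 447 in BMDM_T.

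The pattern over the 11 libraries was compared with that of 4000 genes of at least 30 CPM on average, by the root mean square difference of log2 CPM centred on each gene's mean. The nearest gene to H2-D1 was Tapbp, at 0.164, followed by Nucb1 and Tm2d2. For Tap1 they were Psmb10 (0.185), Naaa and Psmb8 (0.201), and H2-D1 held rank 9. For B2m they were Nfe2l2 (0.226), Nagpa and Vps29, and for H2-K1 Rhob (0.269), Rabgef1 and Nenf. The members most alike were H2-D1 and Tap1 (0.226), and the least alike H2-K1 and B2m (0.718). These distances rest on libraries that share groups and are descriptions.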

How the data were processed

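Per the labels' protocols, the 3' ends of mRNA were sequenced with barcodes and molecular identifiers. The deposited values are raw counts per gene, made by the authors with bcl2fastq, STAR 2.4.2a and HTSeq on mm10, per the submitters' processing notes. For annotation, strand setting and collapse of identifiers, the method is not given in the sources used here. Of 24421 rows, 10207 have a symbol, and all batch 1 counts (11 libraries) fall there. Over these rows batch 1 and batch 2 libraries correlated at Spearman -0.02 to 0.00 (66 pairs), against 0.92 to 0.96 within batch 1 BMDM_H, so batch 2 was not analysed by gene. The planned use of batch 2 was dropped for that reason.

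All 11 libraries entered 1 fit in edgeR 4.0.16 (R 4.3.3) with filterByExpr, TMM factors and the quasi-likelihood test. Benjamini-Hochberg adjusted p-values over 7518 genes were called under 0.05. Standard errors are the log2 fold change over the square root of F. DESeq2 1.42.0 and limma-voom (limma 3.58.1) were alternatives, as were other scalings, no filter, a replicate block and leaving out libraries. Whether replicates were separate mice is not labelled. The p-values then measure only the spread between libraries, which may be technical. Deviations from the group means correlated weakly between same-numbered BMDM_T and BMDM_H libraries (r 0.13 to 0.24 in 4 pairs). Libraries of different numbers were not correlated for comparison, so whether the numbers mark pairs cannot be decided from these values. Printed values are from the fit without the block, and the blocked value is added where it changes a call.

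The members, lists and alternatives were chosen with earlier results of these data known. Of each list, up to 4 called genes of smallest p per comparison could be named. Tap2, Tapbpl, Psmb9, H2-T23, H2-M3 and Irf1 were named where they were not called, and the promoter motifs were picked, after values or sequences were seen. Other spellings of the kB motif were also searched, and its share of windows depends strongly on the letters chosen.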

Additional observations from a re-analysis of the deposited data

Results flagged for a closer look

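H2-D1 stood apart in 1 library. BMDM_H replicate 1 had 3464 CPM, while the other BMDM_H libraries had 2563 to 2634 CPM, and its gap to the nearest was 0.921 of the group's range. Among 18 groups of 4 libraries looked at, over the members and their ratios, this was the 1 result found, and chance finds about 1 in 20. Without this library the log2 fold change of H2-D1 in BMDM_T against BMDM_H was 0.25.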

How the results depend on the processing

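In both comparisons with TAM, all 4 members kept their direction and their call under each of 19 alternatives, with a highest adjusted p of 0.00394. In BMDM_T against BMDM_H no member was called under any of them. Leaving out 1 library at a time gave log2 fold changes of -0.63 to -0.25 for H2-K1, -0.007 to 0.252 for H2-D1, 0.15 to 0.63 for B2m and -0.081 to 0.017 for Tap1. The signs of H2-D1 (without BMDM_T replicate 1) and Tap1 (without BMDM_T replicate 2) thus turned, at adjusted p = 0.996 and 0.98 in edgeR. The number of genes called there was 362. It ran from 238 (without BMDM_H replicate 2) to 409 when 1 library was left out, and was 179 without BMDM_H replicates 3 and 4, where B2m had 0.03. Totals of 387940 to 1286844 counts in BMDM_H set the depth of that comparison. With total counts the calls were 155 higher and 218 lower, against 212 and 150 with TMM factors. The replicate block gave 468 calls and -0.40 for H2-K1, changed no member's call, and brought H2-M3 past the threshold. Between same-numbered TAM and marrow libraries the deviations correlated at r -0.05 to 0.08. In TAM against BMDM_T the block called Psmb9 (edgeR adjusted p = 0.0282). It also lost Wwp2, of the class I export and turnover list, against BMDM_T (0.0836) and BMDM_H (0.0559). Wwp2 was called lower in the main fit (log2 fold change -0.51 and -0.55) and was lost in 7 and 9 of 19 alternatives. In that list 0 of 6 tested genes were called higher and 2 lower against BMDM_T, and 1 and 2 against BMDM_H. Of all genes, 30.1% and 28% were called higher, and 28.7% and 28.3% lower. Of 97 results on other named genes, 78 kept direction and call throughout.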
